A study of Mus musculus with 6 samples.

Results

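A set of 4 genes of the interleukin-6 cytokine family was described in NIH-3T3 cells: Lif, Clcf1 and Il11, which encode cytokines, and Osmr, which encodes a receptor chain. On a culture scaffold the mRNAs of the 3 cytokines stood 2.41-fold to 2.87-fold higher than on plates, and that of the receptor chain 2.74-fold lower. They were picked by symbol from a table of 581 genes, in which all 4 symbols were found. NIH-3T3 is an immortalised line of mouse embryo fibroblasts, labelled wild type, grown here in DMEM with fetal bovine serum, penicillin and streptomycin. Cells grown on standard plates gave one group of 3 libraries, and cells grown on a scaffold called Nanopore #3 gave the other group of 3. The labels used here do not give the material of the scaffold, the time in culture or whether replicates were separate cultures, so every SD is the spread between libraries and may be technical. The table holds genes that the authors had already selected on the same plate and scaffold libraries, and the 4 genes were chosen with their differences known. Their plate to scaffold differences are therefore descriptions, given with no p-value.

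Cytokines of this family signal through the shared receptor chain encoded by Il6st, which pairs with a second chain that depends on the ligand and activates JAK kinases and the transcription factor STAT3. LIF acts through the LIF receptor, interleukin-11 through its own alpha chain, and cardiotrophin-like cytokine factor 1, the product of Clcf1, through the ciliary neurotrophic factor receptor complex. The product of Osmr pairs with the shared chain to bind oncostatin M, and with the interleukin-31 receptor chain to bind interleukin-31. Osmr is thus not the receptor chain of any of the 3 cytokines described here. In fibroblasts, the family is known for roles in inflammation, wound repair and fibrosis, and interleukin-11 and LIF are secreted by stromal cells.

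RefSeq promoter windows on build GRCm38.p6 were at hand for Lif, Il11 and Osmr, and those of Lif and Il11 are shown because each holds a searched motif. Each line gives the 250 bases before an annotated start site, read 5′ to 3′ on the strand of the gene, with capitals for matches to a searched motif. The Lif window is chr11:4257318-4257567 on the plus strand. The Il11 window is chr7:4778142-4778391 on the minus strand, before the start of its principal transcript.
Lif: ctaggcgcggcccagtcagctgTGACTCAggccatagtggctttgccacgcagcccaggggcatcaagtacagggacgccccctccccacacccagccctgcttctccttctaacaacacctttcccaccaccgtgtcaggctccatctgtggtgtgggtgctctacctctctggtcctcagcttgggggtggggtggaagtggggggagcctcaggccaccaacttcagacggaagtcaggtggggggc
Il11: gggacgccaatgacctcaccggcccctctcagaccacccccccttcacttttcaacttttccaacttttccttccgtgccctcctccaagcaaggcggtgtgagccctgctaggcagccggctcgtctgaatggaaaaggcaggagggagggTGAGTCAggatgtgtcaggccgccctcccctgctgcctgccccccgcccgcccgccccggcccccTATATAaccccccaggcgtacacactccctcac

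The AP-1 motif TGACTCA, searched on both strands over these bases and the next 50, was found in Lif from 228 to 222 bases before the start site. In Il11 it was found as TGAGTCA, its reverse complement, from 98 to 92 bases before the start site, and the TATA letters TATATA from 33 to 28 bases before it. A second Il11 window, before the far start site at position 4782857, held no match. No match to the STAT motif TTCNNNGAA, the EGR motif GCGNGGGCG, the CArG box or the NF-kB motif was found in any of the 4 windows, and the Osmr window, on chromosome 15 before position 6874313 on the minus strand, held no match to any of the 6 motifs. All 250 bases of that Osmr window lie in annotated Osmr exons in GENCODE M21, where the gene starts farther upstream. None of the matched motifs overlapped another. Among all 32851 windows of the same length, 5.20% held the AP-1 letters, 8.30% the STAT letters, 5.55% the EGR letters, 5.67% the TATA letters, 1.63% a CArG box and 4.51% an NF-kB motif. The motifs were chosen after these sequences had been seen, and a match describes letters and not a bound site. The G and C content of the 250 bases was 63.6% for Lif, 64.8% for Il11 and 66.0% for Osmr, against a median of 52.4% over all windows.

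All values are normalised read counts, which are reads per gene divided by one size factor per library. Over the 581 genes, the 5 libraries with recovered reads held 264178 to 293198 reads, and size factors of the 6 libraries ran from 0.944 to 1.09. In limma on log2(value + 1), 579 genes (99.7%) passed an adjusted p of 0.05, of which 187 (32.2% of all) were higher and 392 (67.5% of all) lower on the scaffold. All 4 genes passed as well, which the selection of the table builds in. The plate and scaffold values did not overlap in 573 genes (98.6%), the 4 among them. The lower share of the called genes was 67.7% as deposited, 52.4% with libraries rescaled to equal medians and 53.1% after quantile normalisation. Those rescalings, which use only these selected genes, shifted the table-wide median log2 fold change upward by 0.74 and 0.63. No gene of the table had group means closer than about 1.00 in log2 units, and the 4 genes stood at 1.26 to 1.52 in absolute size. The 3 cytokine genes had a median log2 fold change of 1.42, against 1.39 over the genes called higher. Osmr stood at -1.49, against a median of -1.38 over the genes called lower. The median over all 581 genes was -1.16, with more genes lower than higher. Cells were measured in bulk, so a change in how many cells carry an mRNA and a change in the amount per cell cannot be told apart.

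**Figure D1:**
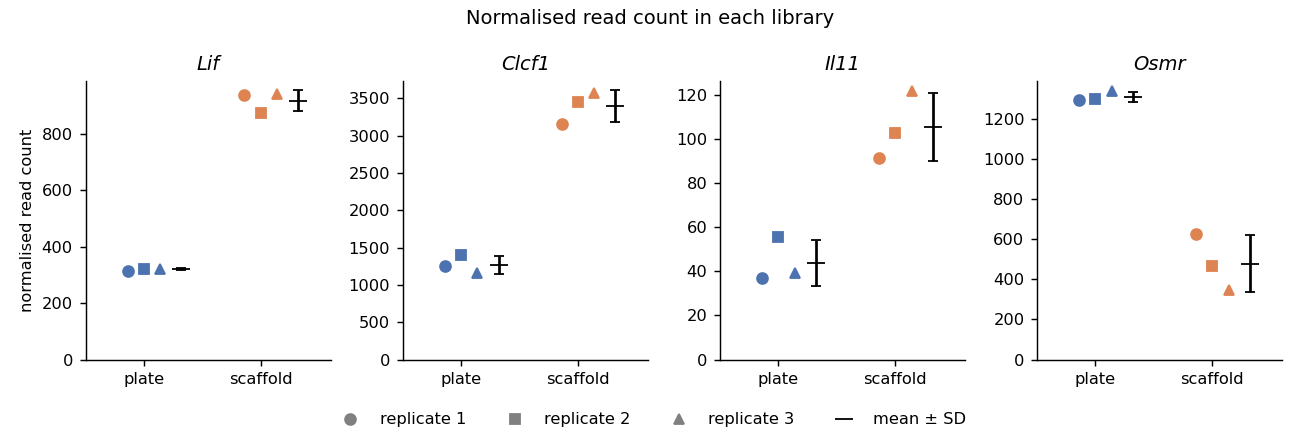
Normalised read count (vertical axes, from 0) of Lif, Clcf1, Il11 and Osmr in each of the 3 plate and 3 scaffold libraries, with the mean and SD of each group in black. The groups do not overlap for any of the 4 genes, and the scaffold libraries of Osmr spread from 344 to 625.

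Lif encodes leukemia inhibitory factor, a secreted cytokine that was named for its effect on leukemia cells and that keeps mouse embryonic stem cells undifferentiated. Its gene (ENSMUSG00000034394) lies on chromosome 11, from 4257557 to 4272514 on the plus strand in GRCm38 coordinates. Normalised read counts of Lif were 315, 321 and 323 in plate replicates 1, 2 and 3, and 937, 875 and 942 in scaffold replicates 1, 2 and 3. The lowest scaffold library stood 2.71-fold above the highest plate library. The group means were 319.7 ± 3.82 and 918 ± 37.5 (SD, n = 3 each), which is 2.87-fold higher on the scaffold, with a log2 fold change of 1.52 (SE 0.088). Lif had the tightest plate values of the 4 genes, with a coefficient of variation of 1.20%. Its plate SD of 3.82 was below the SD of 17.6 that counting error alone gives at that level, so the spread of these 3 libraries is smaller than the precision of a single one. With libraries rescaled to equal medians its log2 fold change was 2.28.

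Clcf1 encodes a cytokine that can be released from cells together with the soluble ciliary neurotrophic factor receptor. It lies on chromosome 19 from 4214238 to 4223490 on the plus strand (ENSMUSG00000040663). Normalised read counts of Clcf1 were 1247, 1397 and 1154 in the plate libraries and 3155, 3449.7 and 3574 in the scaffold libraries, in replicate order. The lowest scaffold value was 2.26-fold above the highest plate value. The means were 1266 ± 123 and 3393 ± 215, which is 2.68-fold higher on the scaffold (log2 fold change 1.42, SE 0.089). Plate libraries held 1212 to 1358 reads of Clcf1, and the spread between libraries was 3.52 times the counting SD on plates and 3.65 times on the scaffold. The log2 fold change of Clcf1 depended on the scaling, at 2.19 with equal medians and 0.70 after quantile normalisation, and kept its direction in both.

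Il11 encodes interleukin-11, a cytokine known in fibroblasts as a mediator of fibrosis. It lies on chromosome 7 from 4772373 to 4782857 on the minus strand (ENSMUSG00000004371). Normalised read counts of Il11 were 36.8, 55.6 and 39.0 in plate replicates 1, 2 and 3, against 91.5, 103 and 122 in scaffold replicates 1, 2 and 3. The groups came closest in plate replicate 2 and scaffold replicate 1, which differed 1.65-fold. The means were 43.8 ± 10.3 and 105 ± 15.3, which is 2.41-fold higher on the scaffold (log2 fold change 1.26, SE 0.21). Plate libraries held only 40, 54 and 41 reads of Il11. For the 40 reads of plate replicate 1, the exact 95% interval was 28.6 to 54.5 reads, for counting error only. The SD between libraries was 1.58 times the counting SD on plates and 1.47 times on the scaffold. With equal medians the log2 fold change of Il11 was 2.01, and after quantile normalisation 1.88.

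Osmr encodes the beta chain of the oncostatin M receptor, a membrane protein whose cytoplasmic part carries the signal into the cell. It lies on chromosome 15 from 6813577 to 6874969 on the minus strand (ENSMUSG00000022146). Unlike the 3 cytokine genes it was lower on the scaffold. Normalised read counts of Osmr were 1294, 1299.7 and 1339 in plate replicates 1, 2 and 3, against 625, 466 and 344 in scaffold replicates 1, 2 and 3. The lowest plate library stood 2.07-fold above the highest scaffold library. The means were 1311 ± 24.7 on plates and 479 ± 141 on the scaffold, which is 2.74-fold lower (log2 fold change -1.49, SE 0.18). With equal medians the log2 fold change of Osmr was -0.73, and after quantile normalisation -1.77.

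The scaffold libraries of Osmr differed among themselves far more than those of the cytokines. On plates its coefficient of variation was 1.88%, and on the scaffold 29.4%, where the SD was 6.35 times the counting SD. Scaffold replicates 1 and 2 held 608 and 440 reads of Osmr, with exact 95% intervals of 561 to 658 and 400 to 483 reads that do not overlap. The log2 ratio to the plate mean was -1.07, -1.49 and -1.93 in scaffold replicates 1, 2 and 3. Among the lower genes of the table, 137 of 392 (34.9%) had, like Osmr, their highest scaffold value in replicate 1 and their lowest in replicate 3. Clcf1 and Il11 showed the opposite order of the scaffold libraries, as did 61 of the 187 higher genes (32.6%), and Lif did not. Without scaffold replicate 1 the log2 fold change of Osmr was -1.71, and without scaffold replicate 3 it was -1.28.

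**Figure D2:**
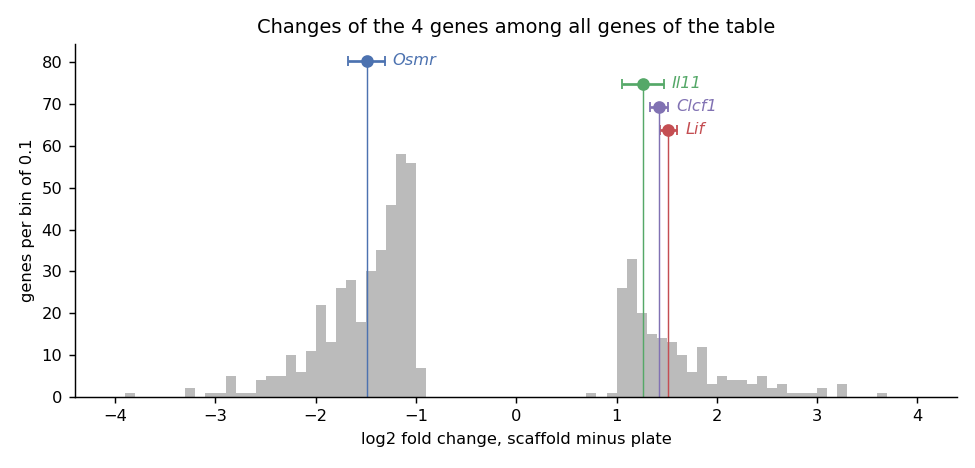
Log2 fold change, scaffold minus plate (horizontal axis), of all 581 genes as a histogram in bins of 0.1 (vertical axis, number of genes), with the 4 genes as points with SE bars above it. The empty middle is the authors' selection, and the 4 genes lie within the bulk of each side, at 1.52, 1.42, 1.26 and -1.49.

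None of the 4 was among the largest changes of the table. By the size of the log2 fold change, Lif ranked 75, Clcf1 90 and Il11 117 of the 187 higher genes, whose median was 1.39. Osmr ranked 162 of the 392 lower genes, whose median was -1.38.

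The ratio of 2 genes within one library does not change when that library is divided by a single factor. It shows unequal change of the 2 genes, and not the direction of either. Quantile normalisation, which is not a single factor, does change such ratios. The ratio of Lif to Osmr was 0.244, 0.247 and 0.241 in the plate libraries and 1.50, 1.88 and 2.74 in the scaffold libraries. Its mean log2 was -2.04 ± 0.018 on plates and 0.98 ± 0.44 on the scaffold, a difference of 3.02, or 8.09-fold. The ratio of Clcf1 to Osmr was 0.964, 1.08 and 0.861 on plates, near equal counts, and 5.05, 7.40 and 10.4 on the scaffold, a log2 difference of 2.92. The ratio of Il11 to Osmr was 0.0284, 0.0428 and 0.0291 on plates against 0.146, 0.220 and 0.353 on the scaffold, a log2 difference of 2.78. For each cytokine the lowest scaffold ratio lay above the highest plate ratio. A gene selected as higher, set against one selected as lower, gives such a shift by construction. These 3 ratios therefore restate the selected differences and are no further result.

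Ratios among the cytokines moved little in the deposited values. Clcf1 exceeded Lif by 3.58-fold to 4.35-fold on plates and by 3.37-fold to 3.94-fold on the scaffold, and the log2 difference of -0.10 between the groups was smaller than the plate SD of 0.14 and the scaffold SD of 0.12. The Lif to Il11 ratio ran from 5.78 to 8.58 on plates and from 7.74 to 10.2 on the scaffold, with a log2 difference of 0.24 and SDs of 0.31 and 0.20. The Clcf1 to Il11 ratio ran from 25.1 to 33.9 and from 29.4 to 34.5, with a log2 difference of 0.14 and SDs of 0.22 and 0.12. In the deposited values the groups overlapped for all 3 of these ratios, so a different rise of the cytokines was not detectable with 3 libraries a group. After quantile normalisation the log2 fold changes lay farther apart, at 1.46 (SE 0.082) for Lif, 0.70 (SE 0.15) for Clcf1 and 1.88 (SE 0.22) for Il11. Clcf1 then still rose less than Lif, while Il11 rose more than both.

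**Figure D3:**
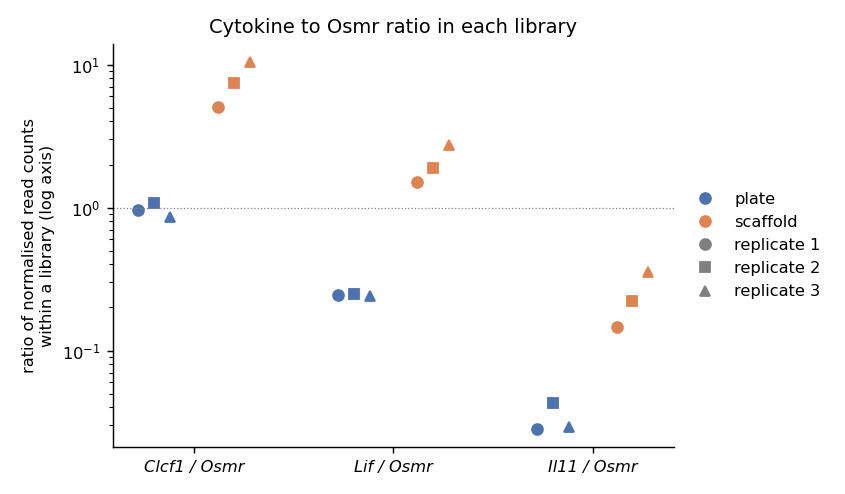
Ratio of the normalised read count of Clcf1, Lif or Il11 to that of Osmr within each library (vertical log axis), for the 3 plate and 3 scaffold libraries. The dotted line marks equal counts, which Lif crossed from 0.247 at most on plates to at least 1.50 on the scaffold.

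Levels of different genes can be compared only per length, and 2 lengths were used. Per 1000 bases of the exon length in the table, the mean normalised read count on plates was 341 ± 33.1 for Clcf1, 108 ± 2.04 for Osmr, 73.5 ± 0.879 for Lif and 21.8 ± 5.10 for Il11, an order held in all 3 plate libraries. On the scaffold it was 914 ± 58.0 for Clcf1, 211 ± 8.61 for Lif, 52.4 ± 7.60 for Il11 and 39.5 ± 11.6 for Osmr. Il11 and Osmr did not differ beyond their spread there, since in scaffold replicate 1 Osmr stood at 51.6 and Il11 at 45.5, while in replicate 3 they stood at 28.4 and 60.5. The table length of Osmr, 12113 bases, counts every annotated exon, including those of 4 retained-intron transcripts, while the principal transcript Osmr-201 has 5491 bases. Per 1000 bases of principal transcripts, Osmr was at 239 ± 4.50 on plates, above Lif at 79.4 ± 0.950, and at 87.2 ± 25.6 on the scaffold, below Lif at 228 ± 9.30. Il11 was then at 54.0 ± 7.84 on the scaffold, below the mean of Osmr, so the order of these scaffold means turned with the length used. In scaffold replicates 1 and 2 Osmr stood at 114 and 84.9 and Il11 at 47.0 and 52.7, and in replicate 3 they were nearly level at 62.7 and 62.5. With both lengths Clcf1 was highest in all 6 libraries, and Lif and Osmr changed places between plate and scaffold.

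**Figure D4:**
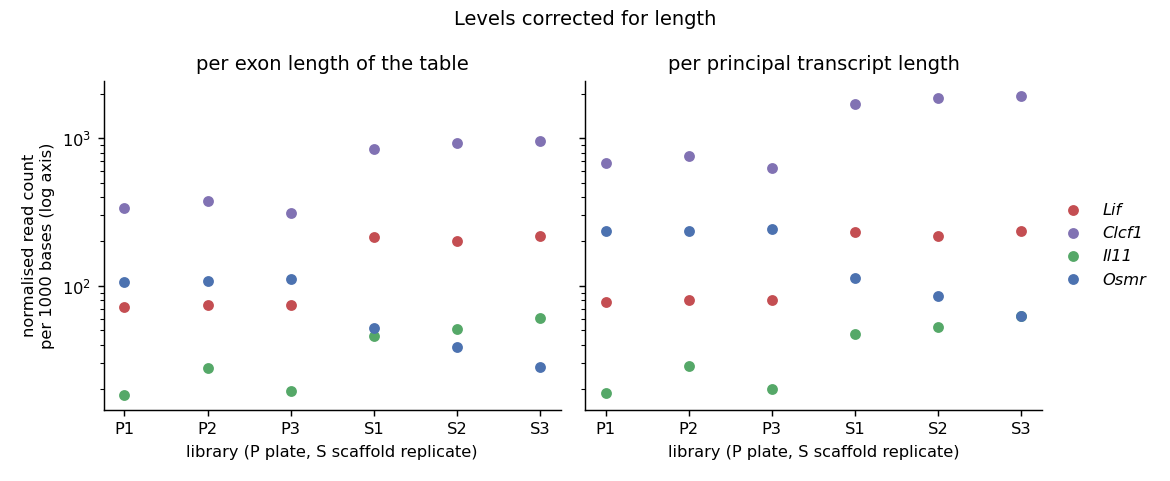
Normalised read count per 1000 bases (vertical log axis) of the 4 genes in plate replicates P1 to P3 and scaffold replicates S1 to S3, using the exon length of the table on the left and the principal transcript on the right. Osmr lies above Lif in every plate library and below it in every scaffold library with both lengths.

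The gene models bear on what the counts can hold. In GENCODE M21, an annotation of GRCm38, Lif, Clcf1 and Osmr have the start and end printed in the table, and Il11 differs by 2 bases at one end. Clcf1 shares 311 of its 3806 annotated exon bases (8.17%) with AC109138.7, a longer gene on the same strand that is not among the 581, so some Clcf1 reads cannot be assigned to one of them with certainty. No other gene overlaps an exon of Lif, Il11 or Osmr. The principal transcripts code for 203 amino acids in Lif, 225 in Clcf1, 199 in Il11 and 971 in Osmr, over 4, 3, 5 and 18 exons. Osm, the gene of oncostatin M, lies 16.5 kb from Lif, and Lifr, the gene of the LIF receptor, lies 216 kb from Osmr. Neither is among the 581 genes. Within 500 kb, Clcf1 had 2 neighbours in the table, Pcx and A930001C03Rik, with log2 fold changes of -1.08 and -1.32, and the other 3 genes had none.

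AU-rich pentamers in the 3′ UTR are known from unstable cytokine mRNAs. The pentamer ATTTA occurred 10 times in the 3′ UTR of Il11, 7 times in Lif, 4 times in Clcf1 and 4 times in Osmr. Among 20307 mouse genes with a 3′ UTR of at least 50 bases, 6.19% had at least as many as Il11, 12.2% as many as Lif and 26.3% as many as Clcf1 and Osmr, and the median was 1. Per 1000 bases of 3′ UTR, the counts were 8.35 in Il11, 4.32 in Clcf1, 2.23 in Osmr and 2.20 in Lif, whose 3′ UTR has 3183 bases. Of the same genes, 2.09% were at or above Il11, 11.1% at or above Clcf1, 32.2% at or above Osmr and 32.6% at or above Lif. Lif and Osmr had nearly the same density. Whether the pentamers bear on the mRNA levels was not tested.

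Few other genes of the pathway were in the table. Of 12 symbols for cytokines of the family and their partners, Lif, Clcf1 and Il11 were present and 9 were not, among them Il6 and Osm. Of 9 receptor chains only Osmr was present, and Il6st, Lifr and Il11ra1 were not. None of 14 JAK and STAT transducers and none of 26 feedback regulators and STAT3 targets, such as Socs3 and Bcl3, was present. The 57 pathway symbols outside the table are not analysed here. The table alone cannot tell a gene that changed less than the selection asked for from one with few reads.

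Among genes of transcription factors, 4 of 14 AP-1 and EGR symbols were in the table. All 4 were higher on the scaffold, with a median log2 fold change of 1.78, and 32.2% of all 581 genes were called higher. Fosb was the only AP-1 subunit among the 4. The AP-1 symbols Fos, Fosl1, Jun, Junb, Jund, Atf3, Batf, Maff and Mafk were not in the table, nor was Egr4. Fosb, an AP-1 subunit, had 55.2, 57.6 and 69.5 normalised reads on plates and 190.2, 151 and 174 on the scaffold (log2 fold change 1.49, SE 0.16). The zinc finger genes Egr1, Egr3 and Egr2 had log2 fold changes of 3.26 (SE 0.23), 2.08 (SE 0.13) and 1.17 (SE 0.22). Egr1 spread widely on the scaffold, at 1327, 923 and 623 in replicates 1, 2 and 3. None of 10 NF-kB symbols was present. Of 25 other helical cytokines and their receptors, 2 were present. Csf3, the granulocyte colony-stimulating factor, was at 8.28, 10.3 and 0 on plates against 19.5, 28.6 and 26.7 on the scaffold. Il15ra, the alpha chain of the interleukin-15 receptor, was lower, at 34.9, 28.8 and 46.6 on plates against 16.5, 4.24 and 10.9 on the scaffold.

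Markers were checked against the label of a fibroblast line. Of 11 fibroblast markers, Col1a2 and Col1a1 were in the table, with the summed level running from 56194 to 57427 on plates and from 23212 to 30363 on the scaffold. Of 12 macrophage and leukocyte markers only Mrc1, the mannose receptor, was present, and it ran from 29.4 to 46.3 on plates and from 106 to 150.5 on the scaffold. Of 8 epithelial markers only Krt8 was present, at 13.3 to 17.5 and 29.8 to 37.6, and of 8 endothelial markers none was. The defining leukocyte marker Ptprc and the epithelial marker Epcam are outside the table, so their levels are not analysed here. Mrc1 and Krt8 moved with the cytokine genes, and their part in the result was not tested.

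The genes with the most similar profiles were found by the root mean square difference of log2(value + 1), centred on the plate mean, over the 6 libraries. For Lif these were Ercc1, a subunit of a DNA repair nuclease, Plaur, the urokinase receptor, and Gpr149, an orphan receptor, at differences of 0.054, 0.081 and 0.086. Ercc1 went from 1299.9 ± 40.8 to 3749 ± 137, which is 2.88-fold. For Clcf1 they were Rnf183, a ubiquitin ligase, Ptpre, a tyrosine phosphatase, and Upp1, a uridine phosphorylase, at 0.063, 0.065 and 0.079. Rnf183 had a log2 fold change of 1.43.

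For Il11 the nearest profiles were less alike, at 0.106 for Disp2, 0.129 for the serine protease gene Klk8 and 0.153 for the phosphatase gene Ptpn22. All 3 had, like Il11, their highest plate value in replicate 2, at 79.2, 103 and 13.4. For Osmr they were Ypel4, the potassium channel gene Kcna4 and Azin2, an antizyme inhibitor, at 0.058, 0.069 and 0.076. Their scaffold values in replicate order were 48.3, 39.2 and 29.7 for Ypel4, 128, 90.0 and 77.2 for Kcna4 and 164, 130.3 and 92.1 for Azin2. All 3 had the same order of scaffold libraries as Osmr. Similar profiles were picked on these same libraries, so a shared order is largely built in. Between the members themselves, Lif and Clcf1 were 0.126 apart, Clcf1 and Il11 0.181 and Lif and Il11 0.280, while Osmr was 1.99 to 2.14 from the cytokines. Seen from Lif, 10 genes of the table were closer than Clcf1.

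**Figure D5:**
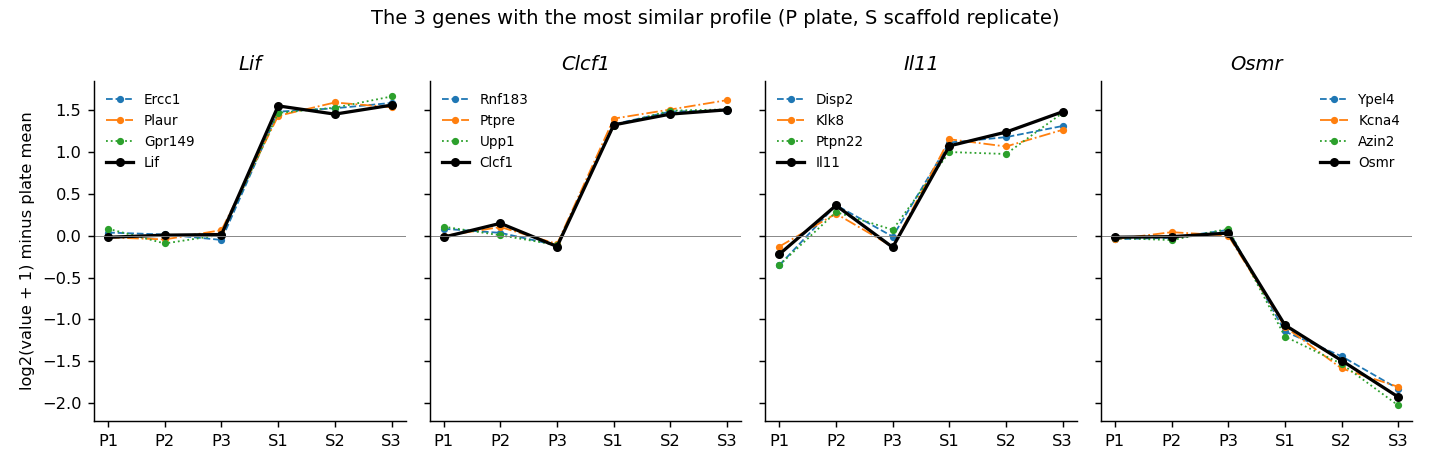
Log2(value + 1) minus the plate mean (vertical axis) of each of the 4 genes in black and of the 3 genes with the most similar profile, in plate replicates P1 to P3 and scaffold replicates S1 to S3. Lines only join values of one gene, and for Osmr all 4 profiles are lowest in scaffold replicate 3. The choice by profile largely builds in such a likeness.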

How the data were processed

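RNA sequencing libraries of 3 plate and 3 scaffold samples were grouped by the sample titles. The submitters' processing notes name DESeq2, HTSeq, HISAT2 and fastp, and build GRCm39. The sources used here give neither their roles nor their versions. Coordinates in the table match GRCm38: 555 of its 581 genes have the same start and end in GENCODE M21. The authors deposited a normalised signal per gene: read counts divided by one size factor per library, not corrected for length although the table names say FPKM. In each library 100% of values were whole multiples of one step within 0.01 read. For scaffold replicate 3, whose step of 0.990 is the nearest to 1, reads were not used. Its step did enter the mean step behind the counting SD of the scaffold group.

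The members, gene lists and motifs were chosen with earlier results of these data known. No value column was left out. Genes with a mean of at least 0.5 were fitted in R 4.3.3 with limma 3.58.1, after taking log2(value + 1), two-sided, with an intensity trend, no block, and Benjamini-Hochberg adjustment over all genes at a threshold of 0.05. Folds are ratios of group means; log2 fold changes and SEs come from the fit and are on the log2(value + 1) scale. The counting SD is the square root of the mean value times the mean step. Intervals of reads are exact Poisson intervals and cover counting error only. Named genes were the 4 members, the members of the lists in the table, and the 3 most similar profiles per member among established symbols. Library totals were not used here. Fits were tested on simulated data. The alternatives tried were pseudocounts of 0.1 or 0.01, a minimum mean of 5 or none, equal medians, quantile normalisation, a replicate block, no trend, a 2-fold minimum and leaving out each library. A count test on the recovered reads of 5 libraries with edgeR 4.0.16, added after seeing the data, called 580 genes.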

Additional observations from a re-analysis of the deposited data

How the results depend on the processing

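Lif, Clcf1 and Il11 stayed higher and Osmr lower on the scaffold, past the threshold of limma or edgeR, under all 15 alternatives per gene. Log2 fold changes ran from 1.46 to 2.28 for Lif, from 0.70 to 2.19 for Clcf1, from 1.15 to 2.01 for Il11 and from -1.77 to -0.73 for Osmr. The ends farthest from the main value came from equal medians or quantile normalisation, except the lowest of Il11, which came without plate replicate 1. Leaving out each library gave 1.50 to 1.55 for Lif, 1.36 to 1.50 for Clcf1, 1.15 to 1.44 for Il11 and -1.71 to -1.28 for Osmr. The edgeR count test on 5 libraries, without scaffold replicate 3, gave 1.50, 1.38, 1.15 and -1.26. Since the table was selected on these libraries, these ranges do not test the selection.

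Of the counts over all genes, 573 to 579 passed when a library was left out, 397 with equal medians, 399 with quantile normalisation and 571 with a 2-fold minimum. The log2 ratio of each cytokine to Osmr rose by 2.78 to 3.22 for Lif, 2.67 to 3.19 for Clcf1 and 2.45 to 3.09 for Il11 when a library was left out. These rises restate differences that the selection of the table built in. Deviations of same-numbered libraries from their group means correlated at -0.029, 0.073 and 0.058. Plate replicate 1 correlated best with scaffold replicate 2, and plate replicates 2 and 3 each with the scaffold library of the same number. Correlations this small cannot decide whether the replicate numbers pair the libraries. With the replicate block 580 genes passed, and the SE of Osmr went from 0.18 to 0.16. The SE rose for the cytokine genes, from 0.088 to 0.111 for Lif, 0.089 to 0.099 for Clcf1 and 0.211 to 0.221 for Il11. Depth limits Il11 most, with 40 to 54 reads in a plate library.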
